A study of Mus musculus with 6 samples.

Results

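The 10 genes described here are the 4 receptors of the EGF receptor (ErbB) family, Egfr, Erbb2, Erbb3 and Erbb4, and 6 of the ligands that bind them, Nrg1, Nrg2, Nrg3, Tgfa, Hbegf and Egf. They were picked by gene symbol from a table of 21286 genes, and all 10 were found. The tissue was the mouse lateral ganglionic eminence (LGE), taken at embryonic day 16.5 and sequenced as RNA, with 3 libraries from wild type littermates and 3 from Dlx1/2 -/- mutants, which lack a pair of homeobox transcription factors of the ventral forebrain. All 6 libraries came from 1 mixed genetic background of C57BL/6J, 129S6 and CD1. Neither the extent of the deleted parts of Dlx1 and Dlx2 nor the number of embryos behind a library is stated in the labels. The p-values therefore speak of the spread among these 6 libraries, part of which may be technical. No batch is named in the labels, and libraries of each genotype carry names of their own form, so a batch along those names and the genotype cannot be told apart. The series as a whole concerns how Dlx1 and Dlx2 act in making olfactory bulb interneurons; for these genes the comparison asks how receptor and ligand transcripts stand in the LGE without both factors.

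ErbB receptors are tyrosine kinases of the cell surface that pair up once a ligand is bound and then pass the signal on through the Ras, ERK and PI3 kinase routes. TGF-alpha (Tgfa), EGF (Egf) and HB-EGF (Hbegf) bind EGFR, and the neuregulins (Nrg1, Nrg2, Nrg3) bind ErbB4, or ErbB3 in the case of Nrg1 and Nrg2; ErbB2 binds no known ligand and works as a partner of the others. ErbB3 has little kinase activity of its own. In the germinal zones of the late embryonic and postnatal forebrain EGFR marks dividing progenitors, while ErbB4 is known from migrating neuroblasts and interneurons.

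Dlx1 and Dlx2 were checked first. Dlx1 fell from 857.9 ± 35.7 to 122.1 ± 14.4 CPM (CPM, counts scaled to library size after TMM normalisation; mean ± SD, n = 3 each) and Dlx2 from 436.3 ± 29.8 to 16.8 ± 1.68 CPM. Total counts were 10711630 to 16588359 per library, lowest in wild type replicate 1. Of 15 markers of the LGE and its striatal neurons, 15 were found and tested. Their summed level was 4775 to 5393 CPM in the wild type libraries and 2124 to 2757 CPM in the mutant libraries. By the test described below 11 were lower and 1 higher, or 80% against 24.0% of all genes tested. The 1 higher marker is also in the list of progenitor markers given later.

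The starts of Egfr, Tgfa and Erbb4, the members that changed most, are shown because these genes moved in opposite directions. Each line gives the 250 bases before the transcription start from RefSeq (GRCm38.p6), 5′ to 3′ on the gene's own strand, with each GC box (GGGCGG, or CCGCCC for the other strand) in capitals.
Egfr, chr11:16751953-16752202, plus strand: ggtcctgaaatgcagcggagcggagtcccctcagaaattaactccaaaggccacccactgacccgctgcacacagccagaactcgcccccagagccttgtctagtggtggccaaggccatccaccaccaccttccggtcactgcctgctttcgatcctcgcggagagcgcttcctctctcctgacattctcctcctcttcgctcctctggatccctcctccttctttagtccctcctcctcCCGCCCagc
Tgfa, chr6:86194972-86195221, plus strand: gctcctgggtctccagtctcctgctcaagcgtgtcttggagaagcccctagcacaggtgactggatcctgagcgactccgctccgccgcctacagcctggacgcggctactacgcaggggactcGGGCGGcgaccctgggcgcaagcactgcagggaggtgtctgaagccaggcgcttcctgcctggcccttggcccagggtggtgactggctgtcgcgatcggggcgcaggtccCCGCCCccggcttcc
Erbb4, chr1:69108060-69108309, minus strand: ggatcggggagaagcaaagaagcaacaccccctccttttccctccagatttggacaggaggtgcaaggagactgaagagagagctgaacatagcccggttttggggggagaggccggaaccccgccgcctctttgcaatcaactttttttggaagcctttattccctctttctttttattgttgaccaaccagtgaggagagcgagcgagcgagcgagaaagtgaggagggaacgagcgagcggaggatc
The Egfr window held 1 GC box, which begins 9 bases before the start. The Tgfa window held 2, which begin 126 and 15 bases before the start, and the Erbb4 window held 0. Of 32851 RefSeq promoter windows of the same length, 32.7% held at least 1. G and C made up 60.8%, 69.2% and 54.0% of the bases of Egfr, Tgfa and Erbb4, against a median of 52.4% over all windows. The homeodomain core TAATTA, which reads the same on both strands and overlaps no GC box, was searched as well. It was in none of the 7 windows of the 6 members in the promoter table (Egfr, Erbb2, Erbb4, Nrg3, Tgfa and Egf, the last with 2 starts) and in 4.84% of all windows. A TATA box (TATAAA or TTTATA) was in none of the 7 and in 12.4% of all windows. These letter matches describe the windows only.

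Of the 10 members, 9 had enough reads for the test, and 5 of these passed it (edgeR's quasi-likelihood test, with p adjusted over 15326 genes after Benjamini and Hochberg and a threshold of 0.05). Egfr and Erbb2 rose in the mutant, and Erbb4, Nrg1 and Tgfa fell. Among all genes tested 24.0% passed, 11.2% higher and 12.8% lower. The share of members that passed, 55.6%, thus lay above that background, in a family picked with earlier results of these data known. The 3 mutant values lay all on one side of the 3 wild type values in 5 members, the same 5, and in 41.9% of all genes tested.

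**Figure D1:**
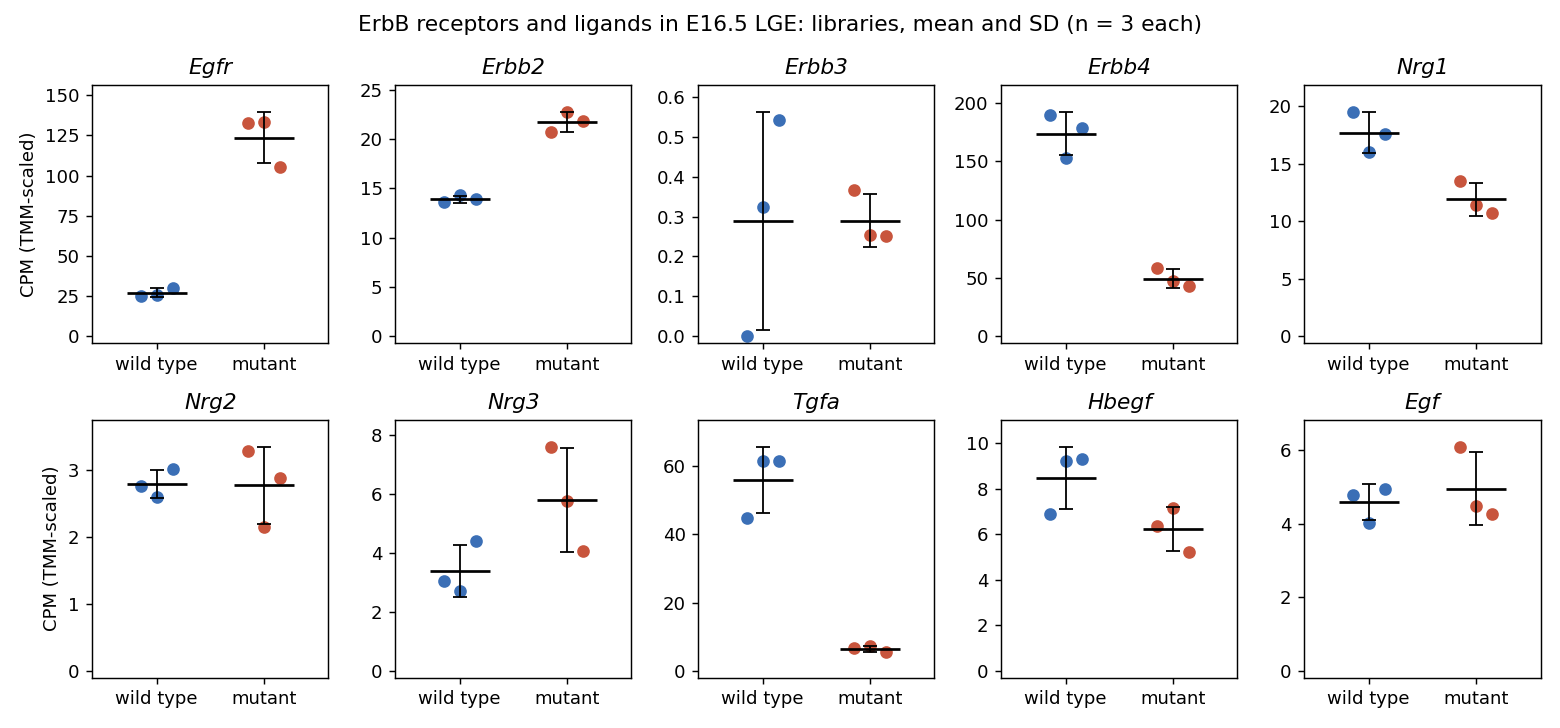
Level of each family member (CPM after TMM scaling, linear axes) in the 3 wild type (blue) and 3 mutant (red) libraries, with mean and SD as black bars. Egfr sits at 25.3 to 30.2 CPM in wild type and at 105.3 to 133.1 CPM in the mutant, while Tgfa sits at 44.7 to 61.6 and at 5.41 to 7.28 CPM.

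Egfr (ENSMUSG00000020122, GRCm38 chromosome 11, 16752203 to 16918158, plus strand), the receptor of EGF and TGF-alpha, was the family member with the largest rise. It was at 25.3, 25.8 and 30.2 CPM in wild type replicates 1 to 3, from 264, 397 and 501 reads, and at 132.8, 133.1 and 105.3 CPM in mutant replicates 1 to 3, from 2179, 2104 and 1674 reads. Every mutant library stood far above every wild type library, and mutant replicate 3 was the lowest of the mutants. The mean went from 27.1 ± 2.73 to 123.7 ± 15.98 CPM, a 4.56-fold rise (log2 fold change 2.19 ± 0.139 SE, adjusted p = 8.66e-06 by edgeR's quasi-likelihood test). Ranked by log2 fold change, it was rank 98 from the top among the 15326 genes tested. In bulk tissue a higher or lower level can come from more or fewer cells of a type or from more or less RNA per cell, which cannot be told apart here.

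Erbb2 (ENSMUSG00000062312, chromosome 11, 98412470 to 98437716, plus strand), the receptor without a known ligand, rose by much less. It was at 13.6, 14.3 and 13.9 CPM in wild type and at 20.7, 22.7 and 21.9 CPM in the mutant. The groups did not overlap, and the libraries within a group were close to each other. The rise was 1.56-fold, from 13.9 ± 0.357 to 21.8 ± 1.0003 CPM (log2 fold change 0.64 ± 0.044 SE, edgeR adjusted p = 0.00102). It overlaps the antisense gene Mien1, which had 1076 reads in the wild type group and 1082 in the mutant group. The labels do not say whether strand was used in counting.

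Erbb4 (ENSMUSG00000062209, chromosome 1, 68032186 to 69108059, minus strand), the neuregulin receptor, fell. It was at 189.3, 153.1 and 178.8 CPM in wild type and at 58.1, 47.1 and 42.8 CPM in the mutant, with no overlap. Even the highest mutant library was far below the lowest wild type library. The mean dropped 3.52-fold, from 173.8 ± 18.6 to 49.3 ± 7.93 CPM (log2 fold change −1.82 ± 0.160 SE, edgeR adjusted p = 3.35e-05), which was rank 241 from the bottom of all genes tested. Splice forms of Erbb4, which differ in how the receptor is cleaved and in its binding partners, are not separated in counts per gene.

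Erbb3 (ENSMUSG00000018166, chromosome 10), which in the nervous system is best known from Schwann cells and the oligodendrocyte lineage, had very few reads. There were 0, 5 and 9 reads in wild type and 6, 4 and 4 in the mutant, 14 in each group, and did not pass the filter on low counts. The ratio of mutant to wild type was 0.882 with a 95% Clopper-Pearson interval of 0.390 to 1.99, which covers counting error only. A change within these limits was not detectable at this depth.

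Among the ligands, Tgfa (ENSMUSG00000029999, chromosome 6, 86195223 to 86275719, plus strand), which binds EGFR, had the deepest fall of the family. It was at 44.7, 61.6 and 61.6 CPM in wild type and at 6.64, 7.28 and 5.41 CPM in the mutant, from 2435 reads in the wild type group and 310 in the mutant group. Wild type replicate 1 was the lowest of its group and still stood well above every mutant library. The mean fell 8.69-fold, from 55.9 ± 9.76 to 6.44 ± 0.9497 CPM (log2 fold change −3.12 ± 0.199 SE, edgeR adjusted p = 8.54e-06), rank 79 from the bottom of all genes tested. The receptor and this ligand therefore moved in opposite directions in the same libraries: the ratio of Tgfa to Egfr in FPKM (the deposited values, scaled to gene length and library total) was 2.98, 4.02 and 3.43 in wild type and 0.0842, 0.0920 and 0.0864 in the mutant.

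Nrg1 (ENSMUSG00000062991, chromosome 8, 31814551 to 32884029, minus strand), the neuregulin with the most reads, fell as well, by a small amount. It was at 19.5, 15.98 and 17.6 CPM in wild type and at 13.5, 11.4 and 10.8 CPM in the mutant. The groups lay next to each other without overlap. The drop was 1.48-fold, from 17.7 ± 1.77 to 11.9 ± 1.45 CPM (log2 fold change −0.57 ± 0.130 SE, edgeR adjusted p = 0.0121), and it missed the stricter threshold of 0.01. Gm26578, a long noncoding RNA on the opposite strand inside Nrg1, had 120 reads in the wild type group and 327 in the mutant group, and reads of both cannot be told apart if strand was not used.

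The other 4 ligands did not pass the test. Hbegf (ENSMUSG00000024486, chromosome 18), the heparin-binding EGF-like factor, was at 6.89, 9.23 and 9.29 CPM in wild type and at 6.34, 7.15 and 5.22 CPM in the mutant. Wild type replicate 1 lay within the range of the mutants; the log2 fold change was −0.45 (95% interval −0.85 to −0.056, edgeR adjusted p = 0.0955), and without that library it was −0.575 with edgeR adjusted p = 0.0401. Nrg3 (ENSMUSG00000041014, chromosome 14), a neuregulin of neurons, was at 3.06, 2.73 and 4.41 CPM in wild type and at 7.62, 5.76 and 4.09 CPM in the mutant. Mutant replicate 3 fell below the highest wild type library; the log2 fold change was 0.76 (interval 0.13 to 1.40, edgeR adjusted p = 0.0834), and without mutant replicate 3 it was 0.962 with edgeR adjusted p = 0.0426. These intervals are for a single gene and are not adjusted for the number of genes tested, so they can leave out 0 where the adjusted p misses the threshold. Both genes thus passed only with that 1 library left out. With any other library left out, the edgeR adjusted p was 0.0916 to 0.237 for Hbegf and 0.0583 to 0.244 for Nrg3.

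Nrg2 and Egf lay at low levels with overlapping groups. Nrg2 (ENSMUSG00000060275, chromosome 18), a neuregulin that binds ErbB3 and ErbB4, was at 2.77, 2.60 and 3.02 CPM in wild type and at 3.29, 2.15 and 2.89 CPM in the mutant (log2 fold change −0.0099, interval −0.50 to 0.48, edgeR adjusted p = 0.979). Egf (ENSMUSG00000028017, chromosome 3), the ligand that gave the receptor its name, was at 4.78, 4.03 and 4.95 CPM in wild type and at 6.10, 4.49 and 4.28 CPM in the mutant (log2 fold change 0.11, interval −0.32 to 0.55, edgeR adjusted p = 0.709). The sign of both depended on single libraries. Their intervals leave room for moderate changes in either direction.

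**Figure D2:**
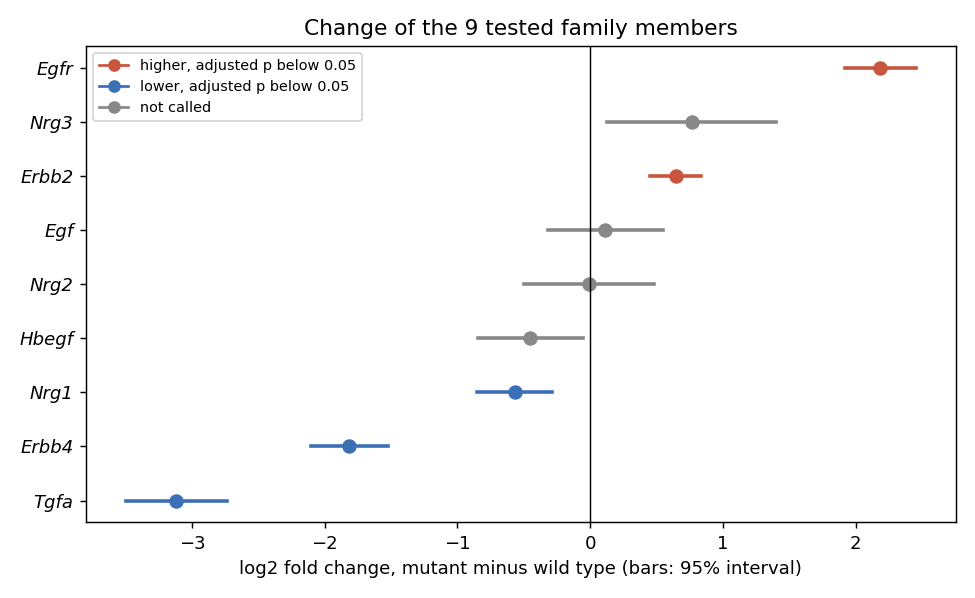
Log2 fold change of mutant against wild type for the 9 tested members (points) with its 95% interval (bars), red for higher, blue for lower and grey for not called. Egfr at 2.19 and Tgfa at −3.12 stand at the ends of the axis, and the 4 grey members lie between −0.45 and 0.76.

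Levels of different genes were compared per length, in the deposited FPKM. In wild type LGE Erbb4 was the most abundant member at 13.5 ± 1.33 FPKM, above Nrg1 at 8.34 ± 0.737 and Tgfa at 7.61 ± 1.41 FPKM, whose ranges over libraries overlapped. Hbegf followed at 3.54 ± 0.614 FPKM, then Egfr at 2.19 ± 0.240 and Erbb2 at 2.04 ± 0.075 FPKM, which again overlapped. Nrg2 was at 0.813 ± 0.064 FPKM, and the last 3 were Nrg3 at 0.318 and Egf at 0.308 FPKM, which overlapped, and Erbb3 at 0.048 FPKM. In wild type tissue the neuregulin receptor was thus the main ErbB transcript per length.

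In the mutant the order was another. Egfr came first at 10.2 ± 1.37 FPKM, apart from Nrg1 at 5.70 ± 0.730 FPKM, and Erbb4 at 3.90 ± 0.650 and Erbb2 at 3.25 ± 0.142 FPKM overlapped. Hbegf was at 2.65 ± 0.422 FPKM. Tgfa, at 0.890 ± 0.135 FPKM, overlapped with Nrg2 at 0.821 ± 0.172 FPKM, as did Nrg2 with Nrg3 at 0.553 ± 0.171 and Nrg3 with Egf at 0.339 ± 0.070 FPKM. Erbb3 stayed last at 0.049 ± 0.011 FPKM.

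The length behind these FPKM values matters for Nrg1 and Hbegf. Count, total and FPKM together imply 2.10 kb for Nrg1 and 2.37 kb for Hbegf, while the union of all annotated exons in GENCODE M21 is 10.35 kb and 4.83 kb. For Egfr the lengths were 12.3 and 11.3 kb and for Erbb4 12.75 and 12.4 kb. Per kilobase of exon union, Nrg1 was at 1.71 CPM in wild type, below Erbb2 and Egfr at 2.67 and 2.39 CPM, and Tgfa at 8.62 CPM was the ligand with the highest level. The place of Nrg1 among the ligands therefore depends on the length that is used; the first place of Erbb4 in wild type and of Egfr in the mutant did not.

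The summed level of the receptors differed between genotypes by less than the spread between libraries, but its make-up differed widely. The 4 receptors added up to 18.5, 16.25 and 18.6 FPKM in wild type and to 18.75, 18.1 and 15.2 FPKM in the mutant, ranges that overlap. Egfr was 12.3% ± 1.27 of that sum in wild type and 58.4% ± 2.03 in the mutant (SD, n = 3 each). Erbb4 went from 75.8% ± 2.41 to 22.4% ± 2.06 of the sum, and Erbb2 from 11.6% ± 1.27 to 18.9% ± 2.36. The ratio of Erbb4 to Egfr, which needs no scaling between libraries, was 7.22, 5.72 and 5.69 in wild type and 0.422, 0.340 and 0.391 in the mutant. In every wild type library Erbb4 exceeded Egfr, and in every mutant library Egfr exceeded Erbb4, also per kilobase of exon union.

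The sum over the 6 ligands was lower in the mutant. It was 19.3, 21.2 and 22.3 FPKM in wild type and 12.3, 11.0 and 9.58 FPKM in the mutant, without overlap, but the size of this sum depends on the length taken for Nrg1. Tgfa made up 36.2% ± 4.57 of it in wild type and 8.14% ± 0.883 in the mutant; per kilobase of exon union the same shares were 61.8% ± 3.92 and 17.7% ± 1.96. These sums and shares restate the changes of their members and were not tested on their own.

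**Figure D3:**
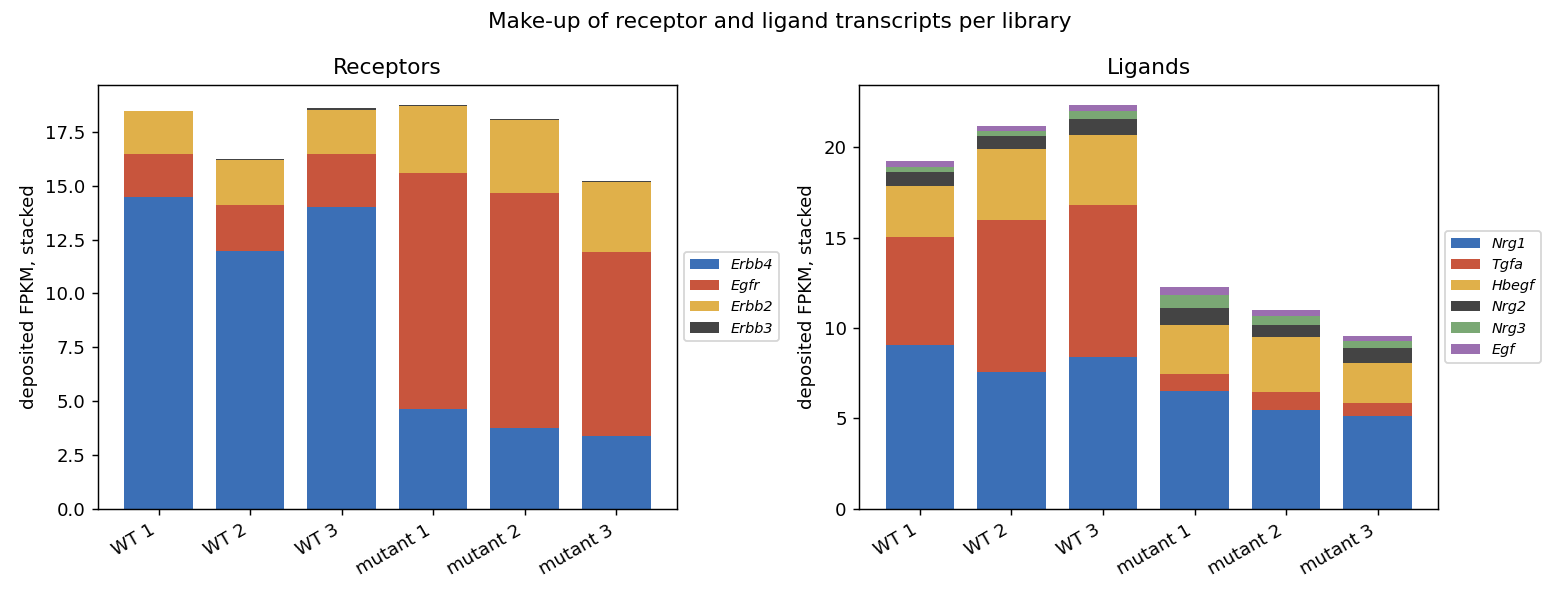
Deposited FPKM of the 4 receptors (left) and 6 ligands (right), stacked per library, with the members told apart by colour. The receptor bars reach 15.2 to 18.75 FPKM over the 6 libraries, with Erbb4 as the main band in wild type and Egfr in the mutant, and the Tgfa band shrinks from 5.98 to 8.43 FPKM to 0.742 to 1.01 FPKM.

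Around the family, 6 lists of pathway genes were described by their counts: other EGF-like ligands, ligand processing, receptor brakes, adaptors and kinases, partners of ErbB4, and genes that respond to ERK. Together they hold 99 genes, of which 95 were tested. Of these 10 were higher and 14 lower, or 25.3%, near the 24.0% of all genes tested, and their median log2 fold change was 0.0070 against 0.0028 over all genes. As a group the pathway genes thus passed the test about as often as any gene, but the share differed between the lists. Of the 5 other EGF-like ligands, Areg and Ereg were not among the 21286 genes, and the 3 that were found lay low. Nrg4 was at 3.20 ± 0.569 and 3.35 ± 0.238 CPM (edgeR adjusted p = 0.886). Epgn had 20 and 22 reads in the groups, and Btc had 1 and 2.

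Among 12 genes of ligand processing, which cut, traffic or inhibit the cutting of membrane-bound ligands, 3 rose and 1 fell (median 0.14). That was 33.3%, against 24.0% of all genes tested. Rhbdl3, a rhomboid protease family member of neural tissue, rose from 28.2 ± 1.95 to 109.3 ± 11.4 CPM (log2 fold change 1.95 ± 0.104 SE, edgeR adjusted p = 5.50e-06). Mmp14, a membrane metalloprotease, rose from 73.5 ± 5.20 to 119.6 ± 4.43 CPM, and Timp3, a metalloprotease inhibitor that acts on ADAM17, from 33.9 ± 2.27 to 42.2 ± 3.58 CPM. Adam19, a metalloprotease that can cut neuregulin, fell from 60.1 ± 0.888 to 39.2 ± 0.449 CPM (log2 fold change −0.62 ± 0.015 SE). Among 17 receptor brakes 3 rose and 0 fell, or 17.6% against 24.0% of all genes tested (median −0.037). Lrig1, a transmembrane protein that sends ErbB receptors to breakdown, rose from 22.2 ± 1.36 to 28.6 ± 1.08 CPM. Sh3kbp1, which links EGFR and Cbl to endocytosis, rose from 39.1 ± 2.84 to 59.0 ± 2.04 CPM, and Socs3, an inhibitor of cytokine signalling, from 10.95 ± 0.296 to 16.3 ± 1.32 CPM.

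In the list of 34 adaptors and kinases 2 rose and 5 fell, or 20.6% against 24.0% of all genes tested (median 0.0071). The docking proteins Gab1 and Gab2, which bind activated receptors and recruit PI3 kinase and Shp2, both rose: Gab1 was at 57.4 ± 3.56 CPM in wild type and 73.4 ± 2.02 CPM in the mutant, and Gab2 at 47.2 ± 2.57 and 65.3 ± 0.975 CPM. Stat5b, a transcription factor downstream of ErbB4 among others, fell from 41.6 ± 5.32 to 25.8 ± 0.790 CPM, and Map2k1, the kinase MEK1, from 43.2 ± 5.02 to 31.1 ± 1.76 CPM. Among 16 partners of ErbB4, 0 rose and 2 fell, or 12.5% against 24.0% of all genes tested (median 0.018). Both are scaffold proteins of the synapse: Dlg2 fell from 71.6 ± 10.2 to 24.8 ± 3.37 CPM (log2 fold change −1.53 ± 0.162 SE, edgeR adjusted p = 1.08e-04) and Dlg3 from 130.1 ± 4.18 to 101.9 ± 4.01 CPM.

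Genes that respond to ERK signalling split, with 2 higher, 6 lower and 7 not called of 15 (median −0.20). The share called was 53.3%, against 24.0% of all genes tested. Dusp4, a phosphatase that acts on ERK, rose from 60.3 ± 6.95 to 153.4 ± 4.39 CPM (log2 fold change 1.34 ± 0.097 SE, edgeR adjusted p = 1.97e-05). The opposite held for Myc, which fell from 22.2 ± 3.27 to 10.6 ± 0.392 CPM, for the immediate early gene Egr1, from 5.91 ± 1.32 to 2.66 ± 0.137 CPM, and for Spred2, an inhibitor of Ras signalling, from 76.0 ± 1.04 to 60.7 ± 1.15 CPM. These genes respond to other receptors too, so their levels are not a readout of the ErbB family alone.

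**Figure D4:**
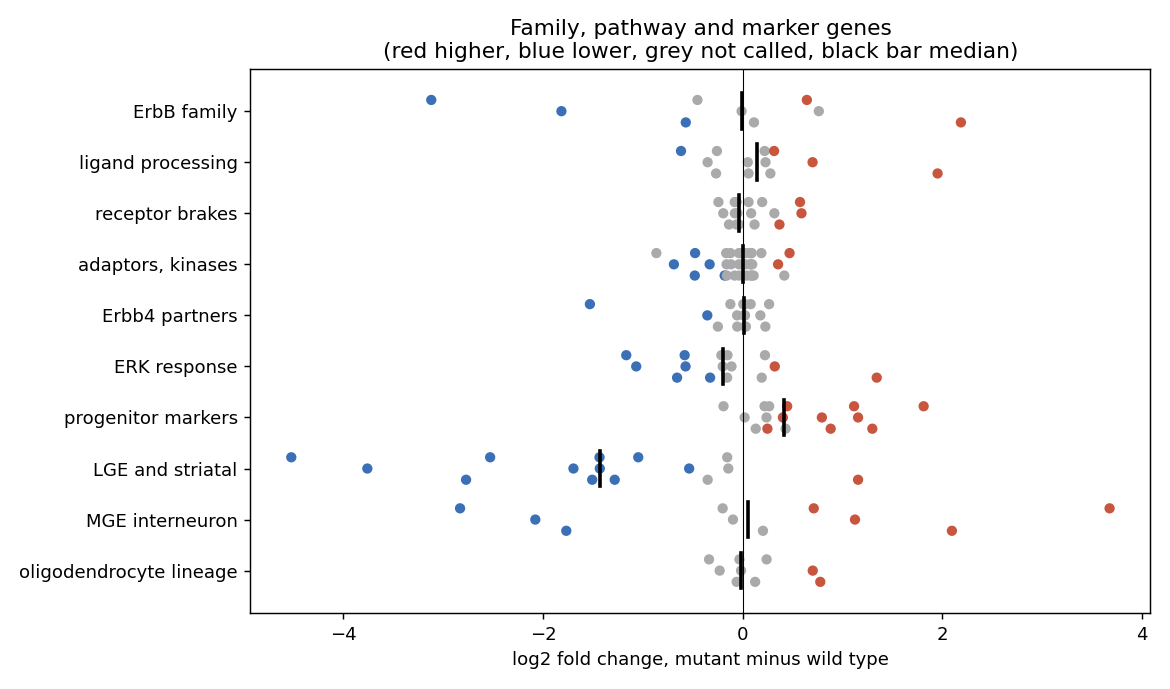
Log2 fold change of mutant against wild type for each tested gene of the family, of 5 pathway lists and of 4 marker lists (points: red higher, blue lower, grey not called; black bar: median of the list). Family members spread from −3.12 to 2.19, while the medians of the 5 pathway lists lie between −0.20 and 0.14.

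Markers of the cell types that could carry these transcripts are given beside the members. Of 16 markers of radial glia and dividing progenitors, 9 were higher and 0 lower, or 56.2% against 24.0% of all genes tested (median 0.42). Their summed level was 3903 to 4637 CPM in wild type and 5815 to 6012 CPM in the mutant, higher as Egfr and Erbb2 were. Among them Hes5, a Notch target, rose from 33.6 ± 3.43 to 118.1 ± 8.11 CPM, and Notch1 from 317.4 ± 33.2 to 688.3 ± 32.3 CPM. Hes1 and Slc1a3, named after their values were seen, did not pass the test. Hes1, also a Notch target, was at 9.68 ± 1.36 and 11.6 ± 0.732 CPM (edgeR adjusted p = 0.174). Slc1a3 had a lower mean in the mutant, at 200.4 ± 4.29 and 175.6 ± 15.6 CPM (edgeR adjusted p = 0.0748). The division markers of the list, named after their values were seen, did not pass the test: Mki67 was at 505.7 ± 94.2 and 553.8 ± 23.6 CPM and Top2a at 515.1 ± 78.3 and 522.4 ± 23.0 CPM (edgeR adjusted p = 0.469 and 0.910). Of 10 oligodendrocyte lineage markers 9 were tested, with 2 higher and 0 lower, or 22.2% against 24.0% of all genes (median −0.016), summing to 122.8 to 171.6 CPM in wild type and 178.1 to 200.1 CPM in the mutant. Olig2, a transcription factor of progenitors and this lineage, rose from 41.0 ± 5.26 to 70.5 ± 5.88 CPM and Pdgfra, a receptor of oligodendrocyte precursors, from 19.2 ± 4.65 to 31.5 ± 2.71 CPM. Without this pair the sums overlapped, at 73.1 to 102.4 and 84.8 to 95.5 CPM. The part of these lists in the rise of Egfr was not tested.

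On the side of the members that fell, 11 of the 15 LGE and striatal markers were lower and 1 higher, as given above (80% called). Among the lower ones Rarb, a retinoic acid receptor, went from 126.8 ± 3.77 to 5.51 ± 0.629 CPM. Interneuron markers of the medial ganglionic eminence, whose cells carry Erbb4, went both ways, with 4 of 10 higher and 3 lower. That was 70% of these markers, against 24.0% of all genes tested. Their median log2 fold change was 0.054. Their sum was 554.5 to 730.5 CPM in wild type and 909.3 to 1024 CPM in the mutant, and without Sst, a peptide gene, 541.3 to 710.5 and 720.8 to 767.2 CPM. Within that list Cxcr4, a chemokine receptor of migrating interneurons, fell from 53.1 ± 4.11 to 15.6 ± 0.551 CPM, and Sst rose from 17.2 ± 3.63 to 222.7 ± 38.0 CPM. Pallial glutamatergic markers, of which 8 were tested, had 5 higher and 3 not called, or 62.5% called against 24.0% of all genes tested. Their sums were 35.7 to 92.0 CPM in wild type and 155.0 to 245.0 CPM in the mutant. The 3 uncalled ones, named after their values were seen, had lower means in the mutant: Tbr1 was at 12.6 ± 7.08 and 6.91 ± 2.77 CPM, Eomes at 8.62 ± 5.14 and 4.34 ± 2.40 CPM and Neurog2 at 8.74 ± 1.88 and 3.73 ± 2.31 CPM (edgeR adjusted p = 0.182, 0.206 and 0.0515). The part of any of these lists in the falls of Erbb4, Tgfa and Nrg1 was not tested.

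Markers of further cell types were read in the same way. Of 9 tested astrocyte markers 3 were higher and 1 lower, or 44.4% against 24.0% of all genes tested. Their sums were 408.9 to 433.9 CPM in wild type and 438.6 to 488.3 CPM in the mutant. Vessel markers had 1 higher and 1 lower of 10, or 20% against 24.0% of all genes tested. The vessel sums were 406.4 to 452.1 CPM in wild type and 416.7 to 431.3 CPM in the mutant. Of 8 microglia markers 0 passed the test by edgeR, 3 had an unadjusted p below 0.05 and 2 passed by DESeq2, with sums of 49.97 to 60.5 and 62.6 to 73.0 CPM. Of the 8 Schwann cell and neural crest entries, Foxd3 and Pmp2 were not found. Only 4 were tested, and 2 of these were higher, or 50% against 24.0% of all genes tested. They were Fabp7, which radial glia also make, and Tfap2a, which went from 0.201 ± 0.116 to 4.50 ± 1.08 CPM. Cdh19 had 0 reads in the wild type group and 2 in the mutant group.

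Egfr and Erbb2 share chromosome 11 but lie far apart on it, as Egfr ends at 16918158 and Erbb2 starts at 98412470. On chromosome 18 Nrg2 and Hbegf lie closer, as Nrg2 ends at 36197380 and Hbegf starts at 36504927. Each other member lies on a chromosome without a further member. The nearest tested gene on each side of every member was read as well. Of these 20 neighbours 1 was higher and 2 were lower, a smaller share than the 24.0% of all genes tested. Beside the members that changed most, none was called. Eldr, a noncoding RNA 16996 bases beyond the end of Egfr, was at 7.31 and 8.06 CPM (edgeR adjusted p = 0.485). Add2, 70814 bases from Tgfa, was at 362.1 and 266.0 CPM (edgeR adjusted p = 0.0922). Ikzf2, 423155 bases from Erbb4, was at 18.6 and 15.1 CPM (edgeR adjusted p = 0.204). The antisense gene Egfros, which overlaps Egfr, had 0 reads in the wild type group and 7 in the mutant group.

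In the authors' deposited table, the p-value was 4.3e-65 for Tgfa, 9.18e-57 for Egfr, 1.68e-36 for Erbb4, 6.75e-06 for Erbb2 and 3.85e-04 for Nrg1. The p-values of Nrg3 and Hbegf in the authors' deposited table, 0.00542 and 0.0280, were below 0.05 as well, and those of Egf (0.663), Nrg2 and Erbb3 (both 1) were not. No header or label says whether these values were adjusted for the number of genes.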

How the data were processed

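RNA of 6 LGE libraries was measured, with samples grouped by genotype and each column matched through its library name. Tools listed in the submitters' processing notes are StringTie 1.3.0, HISAT2 2.0.4 and edgeR, and builds listed there are mm10 and GRCm38.p4; no role is given for any of them, and no source used here names the counter, the annotation or a strand setting. The deposited columns are headed only as count and FPKM. The counts were taken as raw reads per gene and the FPKM values as scaled per length and library. A p-value per gene was deposited by the authors, with no word on its test. Date-like symbols, 25 in all, were repaired through gene IDs.

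The counts went into edgeR 4.0.16 under R 4.3.3 (filterByExpr by group, TMM, glmQLFit and glmQLFTest, two-sided, Benjamini-Hochberg over 15326 genes, threshold 0.05). The SE comes from log2 CPM with 0.5 added to each count, and the 95% interval of a fold change from the quasi-likelihood F. That SE holds only the spread among the libraries of that 1 gene. For Erbb2 and Adam19 it understates the uncertainty that the interval shows. A floor of 3 counts is 0.181 to 0.287 CPM in a library. Intervals of read ratios cover counting error only. Positions and exon lengths come from GENCODE M21 (GRCm38), promoter windows from RefSeq. The script was tested on simulated counts.

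All 10 members are named, and of each of 15 other lists at most the 4 with the smallest adjusted p; where no member of a list passed, the rule allowed the 2 highest. Low genes given by reads, the neighbours and the overlapping genes were named for their reads or position. Genes said to be named after their values were seen stand outside that rule, as do entries that were not found. The members and lists were chosen with earlier results of these data known. Alternatives were the replicate number as a block, RLE scaling, omission of each library in turn, no filter, DESeq2 1.42.0, a threshold of 0.01 and, added after seeing the data, other length and TMM scalings of the levels and sums of 2 marker lists without their leading genes. The values of 1 entry of the marker lists are not reported here.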

Additional observations from a re-analysis of the deposited data

How the results depend on the processing

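Egfr, Erbb2, Erbb4 and Tgfa kept their direction and their call in all 11 alternative settings of the test, with log2 fold changes of 2.13 to 2.29, 0.613 to 0.679, −1.95 to −1.72 and −3.26 to −3.01. Nrg1 missed the threshold of 0.01 (log2 fold change −0.569, edgeR adjusted p = 0.0121) and passed in the others. Leaving out each library in turn gave −0.672 to −0.503 for Nrg1, −0.575 to −0.342 for Hbegf (called without wild type replicate 1), 0.523 to 1.01 for Nrg3 (called without mutant replicate 3), −0.149 to 0.144 for Nrg2 and −0.0624 to 0.208 for Egf. Nrg2 turned positive without wild type replicate 3 (0.0526) and without mutant replicate 2 (0.144), and Egf turned negative without mutant replicate 1 (−0.0624). Genes called higher and lower numbered 1211 to 1626 and 1416 to 1956 with 1 library left out, and 875 and 1116 at the threshold of 0.01. The lower genes of the 6 pathway lists numbered 9 to 13 with 1 library left out (9 without mutant replicate 2) and 8 at the threshold of 0.01. A stricter threshold gives fewer calls by construction; for the values with 1 library left out the cause was not tested.

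Deviations of same-numbered libraries from their group means correlated at −0.176, 0.0426 and −0.168. The highest correlation of any wild type with any mutant library was 0.25, for wild type replicate 1 and mutant replicate 3. Pairing by replicate number was thus not seen, but with 3 libraries per group these values cannot settle whether libraries were paired. With the replicate number as a block, 1223 genes were higher and 1458 lower, and the members called were again 2 higher and 3 lower, with log2 fold changes of 2.18 for Egfr and −3.11 for Tgfa.

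Per kilobase of exon union, a scale added after seeing the data, levels in wild type and mutant moved to 1.71 and 1.15 CPM for Nrg1, 1.75 and 1.29 for Hbegf, 2.67 and 4.18 for Erbb2, 0.499 and 0.854 for Nrg3 and 0.407 and 0.440 for Egf, and in wild type to 0.891 for Nrg2; the length used is the cause by construction. FPKM divided by the TMM factor moved no level by more than its SD. Multiplying by that factor, as first planned, was not run because the effective library size divides. Depth limits Erbb3, with 14 reads in each group.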

Other observations

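The ratio of Nrg1 to its receptor gene Erbb4, a pair looked at after the values had been seen, was higher in every mutant library than in every wild type library. In FPKM it was 0.625, 0.633 and 0.597 in wild type and 1.41, 1.47 and 1.52 in the mutant. Per kilobase of exon union it was 0.118 to 0.125 in wild type and 0.278 to 0.300 in the mutant. Which of the pair is higher in the mutant therefore depends on the length used for Nrg1. Counting error of this ratio was 6.13% to 8.55% per library, so differences between libraries of 1 genotype are within it.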
